A study of Sus scrofa with 15 samples.

Results

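The genes described here are effectors of apoptosis and necroptosis, 2 forms of regulated cell death. The rule names them as CASP8, CFLAR, BIRC2, BIRC3, RIPK1, RIPK3, MLKL and FADD, and they were looked up by pig Ensembl symbol in a table of raw read counts for 31908 genes. Of these 8 members, 6 had a row. The identifiers paired with BIRC2 and FADD had none, so no value is given for them. RNA came from livers of male Duroc x Large White x Landrace piglets. The CON group was injected with sterile saline and the LPS group with 80 μg/kg of lipopolysaccharide, a component of the Gram-negative bacterial outer membrane, into the abdominal cavity, 6 piglets each, and liver was taken after blood sampling at 4 h. Each group had 3 input libraries, made from fragmented polyadenylated RNA kept back before m6A immunoprecipitation, and the labels do not say which piglet each library came from. The p-values therefore measure the spread between these libraries only. The other samples of the series are m6A-immunoprecipitated RNA, which was not analysed here.

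When a ligand such as TNF or FAS ligand binds its death receptor, the adaptor FADD can bring together procaspase-8, the product of CASP8, and the catalytically inactive relative encoded by CFLAR (cFLIP). Caspase-8 that is free to act cleaves the executioner caspases and starts apoptosis, and it also cleaves RIPK1 and RIPK3. Where caspase-8 is held back, RIPK1 and RIPK3 assemble through a shared interaction motif and RIPK3 phosphorylates MLKL, which then breaches the plasma membrane, the process called necroptosis. BIRC2 and BIRC3 (cIAP1 and cIAP2) are ubiquitin ligases that modify RIPK1 in the TNF receptor complex and so favour survival signaling over death. CFLAR and BIRC3 are known targets of the transcription factor NF-κB. In liver, hepatocytes are sensitive to death through FAS and caspase-8, whereas healthy hepatocytes are known to contain little RIPK3.

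Total counts ranged from 4348478 to 19967417 per library, with the most in LPS replicate 3. After TMM scaling, which matches libraries on the bulk of their genes, values are given as CPM, a library's reads of a gene relative to its scaled total. The scaling factor was 0.735 in LPS replicate 3 and from 0.979 to 1.11 in the other libraries. The liver label was borne out by the 10 hepatocyte markers, which together held from 37328 to 74264 CPM. The LPS libraries were less alike than the CON libraries. Across tested genes, the Pearson correlation of log2(CPM + 1) with the CON libraries was 0.867 to 0.912 for LPS replicate 1, 0.932 to 0.954 for LPS replicate 2 and 0.850 to 0.883 for LPS replicate 3. Between LPS libraries it was 0.863 to 0.920, with the lowest value for replicates 2 and 3, and between CON libraries 0.951 to 0.961. Values of the members are therefore given without LPS replicate 2 or 3 where leaving it out changed a call or a direction.

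All 6 members with a row passed the filter on low counts, among 12774 tested genes. With all 6 libraries, edgeR called 0 of the 6 members (p below 0.05 after Benjamini-Hochberg adjustment over all of them, with more than a 1.5-fold difference). The background was low, since 0.0548% of all tested genes were called. At an unadjusted p below 0.05, edgeR again gave 0 members, against 12.5% of all tested genes. The LPS and CON ranges overlapped for every one of the 6 members, whereas 16.3% of tested genes had ranges that did not overlap. DESeq2 with all libraries called 0 members and 3.16% of genes, and edgeR without LPS replicate 3 called 0 members and 0.461% of genes. The coefficient of variation ran from 7.48% (CASP8) to 35.1% (BIRC3) among the CON libraries and from 19.0% (CASP8) to 122% (BIRC3) among the LPS libraries. LPS replicate 3 had the highest TMM-scaled value of all libraries in 5 of the 6 members, as it did in 27.2% of tested genes. LPS replicate 2 had the lowest LPS value in the same number of members, as in 33.2% of tested genes. For CASP8 both ranks depended on the scaling. Relative to unscaled total counts, its level in LPS replicate 3 (182 of 19967417 reads) was below that in LPS replicate 2 (52 of 5502438).

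**Figure D1:**
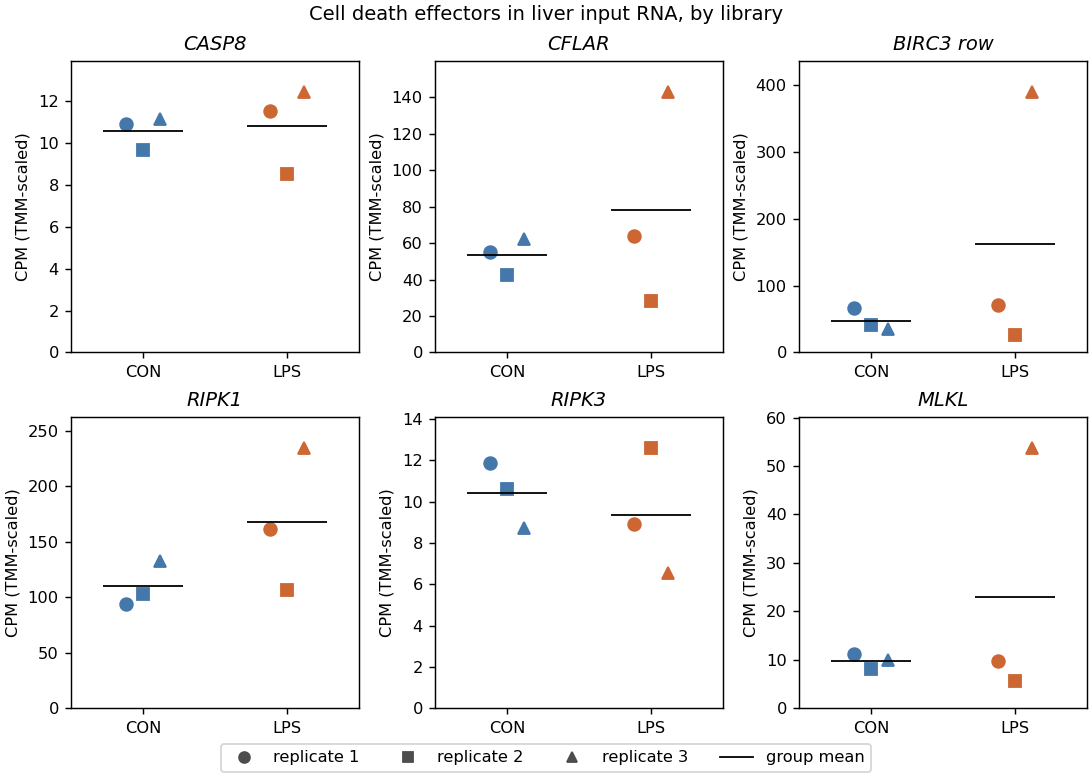
TMM-scaled CPM (vertical axis, linear, from 0) of the 6 members in the CON and LPS libraries, with marker shape for the replicate and a line for the group mean. LPS replicate 3 reached 389 CPM in the BIRC3 row and 53.7 in MLKL, far above the other libraries, while CASP8 stayed between 8.51 and 12.4 in all of them.

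CASP8, the initiator protease, was the steadiest member. Its row (ENSSSCG00000028157) lies on chromosome 15 from 104923953 to 104948470, and for the pig build of these positions the sources used here give no name. CON replicates 1, 2 and 3 held 10.9, 9.69 and 11.2 CPM, and LPS replicates 1, 2 and 3 held 11.6, 8.51 and 12.4 CPM. The LPS values lay on either side of the CON values. The group means were 10.6 ± 0.8 and 10.8 ± 2.1 CPM (mean ± SD, n = 3 each). LPS minus CON came to a log2 value of 0.03 (standard error, SE, 0.33, adjusted p = 0.981 by edgeR), with a 95% interval from -0.70 to 0.76, and -0.07 without LPS replicate 3. The limits of the interval correspond to 0.618-fold and 1.70-fold, so a change of moderate size in either direction was not detectable with these libraries.

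CFLAR, the brake on caspase-8, had a wider spread among the LPS libraries than among the CON libraries. Its row (ENSSSCG00000016101) lies on chromosome 15 from 104781615 to 104844921. The CON libraries held 55.3, 42.6 and 62.2 CPM, in replicate order, and the LPS libraries 63.7, 28.1 and 143 CPM. LPS replicate 3 was above and LPS replicate 2 below every CON library, with LPS replicate 1 close to the highest of them. The fitted log2 fold change was 0.55 (SE 0.51, adjusted p = 0.694 by edgeR, 95% interval -0.59 to 1.69). Leaving out LPS replicate 2 gave 0.96 (adjusted p = 0.166), whereas leaving out LPS replicate 3 gave -0.20 (adjusted p = 0.879), so its direction turned on that library.

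CFLAR and CASP8 are close neighbours, with CASP10, another initiator caspase, between them. In these annotations 13.2 kb separate CFLAR from CASP10 and 29.0 kb separate CASP10 from CASP8, with all 3 on the plus strand. CASP10, named for this position, measured 36.1, 27.7 and 38.3 CPM in CON and 23.1, 21.3 and 39.0 CPM in LPS, by replicate. Its log2 fold change was -0.29 (SE 0.34, adjusted p = 0.766 by edgeR). The level in LPS replicate 3 divided by the mean of the other LPS libraries was 3.11 for CFLAR, 1.76 for CASP10 and 1.24 for CASP8, and the median over all tested genes was 1.00. This ratio was thus larger for CFLAR than for its neighbours.

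The row named BIRC3 (ENSSSCG00000027529, chromosome 9 from 33003276 to 33063420, plus strand) needs a limit stated before its values. Its 22 exon blocks form 2 clusters of 11, with 4688 and 2970 bases, separated by a gap of 21.4 kb. In the RefSeq table for pig the gene directly after BIRC3 is a separate protein-coding gene, LOC100622859, and no gene is named BIRC2. In other mammals BIRC2 is the neighbour of BIRC3. Whether the row also counts reads of a second gene was not tested, since the table gives 1 count for the whole row. It is called the BIRC3 row here.

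The BIRC3 row had the largest fold change of the 6 members, and it rested on 1 library. The CON libraries held 65.9, 40.8 and 34.7 CPM, in replicate order, and the LPS libraries 71.3, 26.2 and 389 CPM. LPS replicate 3 held 5699 reads of this row, LPS replicate 1 was just above the highest CON library, and LPS replicate 2 was the lowest of all 6. On the log2 scale LPS differed from CON by 1.79 (SE 0.83, adjusted p = 0.423 by edgeR), with a 95% interval from -0.08 to 3.65. Without LPS replicate 2 the row was called, at 2.30 (SE 0.60, adjusted p = 0.0493 by edgeR), the only member called in a setting where 7.2% of tested genes were. Without LPS replicate 3 the log2 fold change was 0.07 (SE 0.44, adjusted p = 0.966). Testing without the filter on low counts also called this row (1.77, standard error 0.41, adjusted p = 0.00117 by edgeR) and no other member, against 3.76% of the genes tested then. In that setting the SEs of the members lay between 0.39 and 0.44, against 0.33 to 0.83 with the filter. They were nearly alike for members of unlike spread, so this p says little of the spread of this row.

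RIPK1, the kinase at the junction of survival signaling, apoptosis and necroptosis, was the member whose direction held in every setting, together with the BIRC3 row. Its row (ENSSSCG00000001009) lies on chromosome 7 from 1841236 to 1880699. The CON libraries held 93.5, 103 and 133 CPM, in replicate order, and the LPS libraries 161, 107 and 235 CPM. LPS replicates 1 and 3 were above every CON library, and LPS replicate 2 lay within the CON range. LPS minus CON came to a log2 value of 0.61 (SE 0.36, adjusted p = 0.523 by edgeR, 95% interval -0.19 to 1.42). It stayed between 0.30 and 0.90 over the 19 other settings tried, none of which called it, and the lowest of these came without LPS replicate 3.

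RIPK3, the kinase that activates MLKL, had the reverse order among the LPS libraries. Its row (ENSSSCG00000001987) lies on chromosome 7 from 74951060 to 74955192, and its exons share bases with the row of the next gene on the same strand, ADCY4, so reads in the shared part are uncertain. The CON libraries held 11.9, 10.6 and 8.70 CPM, in replicate order, and the LPS libraries 8.94, 12.6 and 6.55 CPM. LPS replicate 2, the lowest LPS library for the other members, was the highest of all 6 libraries, and LPS replicate 3 was the lowest. The fitted log2 fold change was -0.16 (SE 0.37, adjusted p = 0.892 by edgeR, 95% interval -0.98 to 0.66). Without LPS replicate 3 it was 0.07.

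MLKL, the pore-forming end point of necroptosis, resembled the BIRC3 row. Its row (ENSSSCG00000002716) lies on chromosome 6 from 12924894 to 12951173. The CON libraries held 11.1, 8.12 and 9.99 CPM, in replicate order, and the LPS libraries 9.81, 5.56 and 53.7 CPM. LPS replicate 3 was 6.99 times the mean of the other LPS libraries, LPS replicate 1 lay within the CON range and LPS replicate 2 below it. On the log2 scale LPS differed from CON by 1.26 (SE 0.72, adjusted p = 0.510 by edgeR, 95% interval -0.36 to 2.88), and -0.34 (SE 0.40, adjusted p = 0.798) without LPS replicate 3. Without LPS replicate 2 it was 1.73 in edgeR (adjusted p = 0.0957). DESeq2 without that library, a setting added after the values were seen, called MLKL (1.76, adjusted p = 0.0265) and the BIRC3 row (2.33, adjusted p = 0.00104), 2 of the 6 members against 11.4% of the genes tested.

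**Figure D2:**
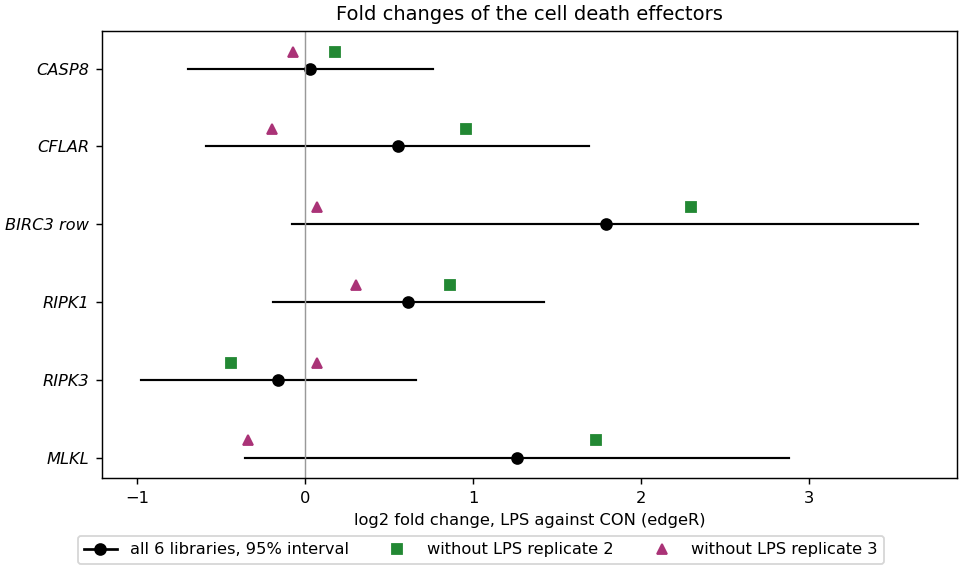
Log2 fold change of each member, LPS against CON, from edgeR (horizontal axis), with all 6 libraries (black, with the 95% interval) and without LPS replicate 2 (green squares) or LPS replicate 3 (purple triangles). Every interval with all libraries includes 0, and leaving out LPS replicate 3 brings the BIRC3 row to 0.07 and MLKL to -0.34.

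Among all tested genes, the ratio of LPS replicate 3 to the mean of the other LPS libraries placed the BIRC3 row at the percentile 99.5, MLKL at 99.3 and CFLAR at 95.8. RIPK1 was at 82.3, CASP8 at 63.8 and RIPK3 at 23.4. So the BIRC3 row, MLKL and CFLAR were in the upper tail of this ratio, and RIPK1, CASP8 and RIPK3 were lower. The ratio turns on LPS replicate 3 alone, so it is not replicated. The depth behind MLKL and RIPK3 was small, with 34 to 124 reads of MLKL and 41 to 133 reads of RIPK3 in the libraries other than LPS replicate 3. That library held 787 reads of MLKL but only 96 of RIPK3.

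Levels of different genes were compared per kilobase of exon. In the CON group the order was RIPK1 (13.0 ± 2.4 CPM per kb, mean ± SD, n = 3), CFLAR (9.62 ± 1.79), the BIRC3 row (6.15 ± 2.16), RIPK3 (5.48 ± 0.85), CASP8 (2.73 ± 0.20) and MLKL (1.98 ± 0.30). Neighbours from RIPK1 down to RIPK3 overlapped in their CON ranges, whereas the ranges of RIPK3, CASP8 and MLKL did not overlap. Within each CON library every neighbour kept this order except the BIRC3 row and RIPK3. RIPK1 stood at the percentile 80.1 of all tested genes by this level, RIPK3 at 61.6, CASP8 at 44.1 and MLKL at 36.2. The length of the BIRC3 row covers both exon clusters, so its place in the order is uncertain. In the LPS group the BIRC3 row had the highest mean, 21.2 ± 25.8 CPM per kb, with an SD above the mean, and CASP8 the lowest, 2.79 ± 0.53. MLKL was at 4.69 ± 5.43 and RIPK3 at 4.94 ± 1.6 CPM per kb, and these neighbours overlapped.

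Ratios between members within a library do not depend on how libraries are scaled, and 4 of them were compared between the groups with a two-sided exact permutation test on log2 values, each count raised by 0.5. With 3 libraries per group this test cannot give a p below 0.1. A planned ratio of BIRC3 to BIRC2 could not be formed, because BIRC2 has no row. CFLAR per CASP8, the balance of brake and protease, was 3.54, 3.06 and 3.88 in CON and 3.82, 2.30 and 8.01 in LPS, by replicate. On the log2 scale LPS exceeded CON by 0.25 (exact permutation p = 0.8). LPS replicate 3 was above and LPS replicate 2 below all CON libraries, and without LPS replicate 3 the difference was -0.23.

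MLKL per RIPK3, pore against kinase, was 0.360, 0.296 and 0.443 in CON and 0.423, 0.172 and 3.15 in LPS, by replicate. LPS replicate 3 was the one library in which MLKL exceeded RIPK3 per kilobase. The difference of log2 means was 0.76 (exact permutation p = 0.8), with an SD of 2.15 among the LPS libraries and 0.29 among the CON libraries, and it was -0.42 without LPS replicate 3. RIPK3 per CASP8 was 2.23, 2.24 and 1.595 in CON and 1.59, 3.02 and 1.08 in LPS, by replicate, a log2 difference of -0.21 (exact permutation p = 0.6) that was 0.13 without LPS replicate 3. RIPK1 per RIPK3 was 1.76, 2.17 and 3.41 in CON and 4.01, 1.89 and 8.01 in LPS, by replicate, a log2 difference of 0.74 (exact permutation p = 0.3) that was 0.23 without LPS replicate 3. The groups overlapped in all 4 ratios, and each p was 0.8 after Benjamini-Hochberg adjustment over the 4.

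**Figure D3:**
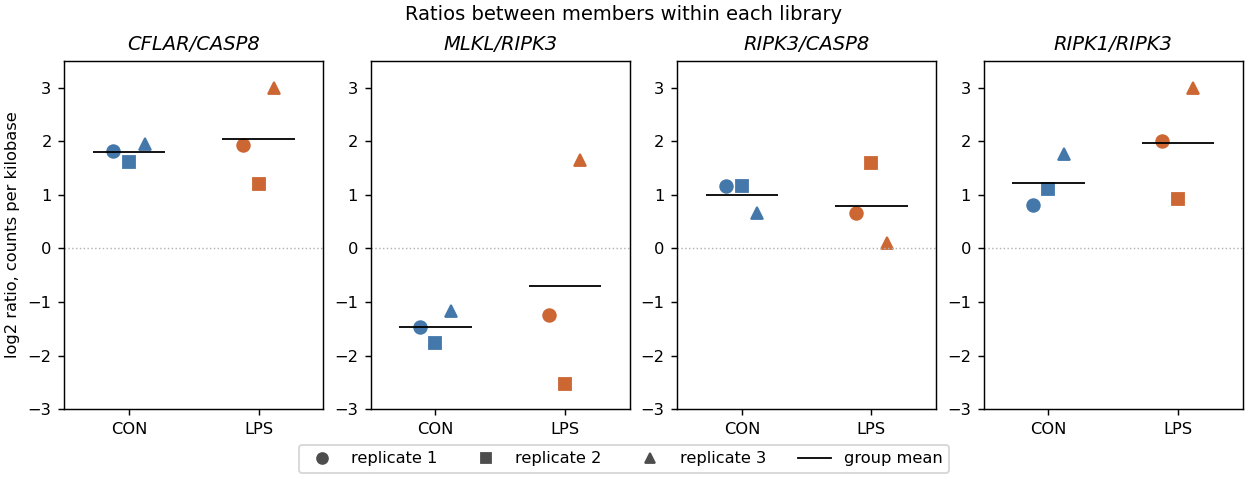
Log2 ratio of counts per kilobase between pairs of members (vertical axis) in each CON and LPS library, with marker shape for the replicate, a line for the group mean and a dotted line at a ratio of 1. MLKL relative to RIPK3 lies below the dotted line in every library except LPS replicate 3, at 1.66.

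Across the 6 libraries, the member most like MLKL was the BIRC3 row, with a Pearson correlation of log2 CPM of 0.97. CFLAR correlated with MLKL at 0.95 and with CASP8 at 0.93. RIPK3 had a negative correlation with each of the other members, from -0.94 with RIPK1 to -0.79 with the BIRC3 row. Of the 7509 genes with a symbol and a mean of at least 8 CPM, those most like CASP8 were ADAR (0.995), RSAD2 (0.992) and MX1 (0.992), 3 interferon-inducible genes. A correlation does not measure the size of a change. The log2 fold changes were 0.1 for ADAR, 0.93 for RSAD2 and 1.18 for MX1, against 0.03 for CASP8. AFF4 (0.995), CCL2 (0.992) and DCUN1D3 (0.991) were most like the BIRC3 row, and CCL2 encodes a monocyte chemokine. DHX8, MAP3K8 and HSPA14 (each 0.997) were most like MLKL, and FBXW7 (0.993), POLD3 (0.990) and PRMT5 (0.987) most like CFLAR. For RIPK1 they included RPL35 (0.998) and GRIK4 (0.997), and for RIPK3 ANGEL2 (0.986), ASAP2 (0.979) and CTNS (0.976). These values describe 6 points that share 2 groups, differ in depth and include the high values of LPS replicate 3 in 5 of the 6 members.

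Markers of other cell types are given beside these values, because whole liver was sequenced and fewer cells of a type cannot be told apart from less RNA per cell. Of 15 neutrophil markers 11 had a row and 9 were tested, 7 of them higher in the LPS group with 1 called. Their summed level was 52.2 to 98.3 CPM in the CON group and 211, 151 and 378 CPM in LPS replicates 1, 2 and 3. The same order among the LPS libraries was seen in TMM-scaled CPM for every member with a row except RIPK3, and for CASP8 it depended on the scaling. How many of all tested genes have this order was not counted. None of the 11 was at 0 in all libraries, and LTF and MMP8 were at 0 in at least 1. Kupffer cell or macrophage markers, 12 of 14 tested and all 12 lower in the LPS group with 0 called, summed to 2052 to 3304 CPM in the CON group and 1388, 2351 and 1906 CPM in the LPS replicates, none of the 12 being at 0. T or NK cell markers summed to 151 to 198 CPM in the CON group and 85.0 to 178 in the LPS group, with GZMA and KLRB1 at 0 in at least 1 library. Red blood cell or platelet markers, 2 of 9 tested, had the neutrophil order, with 226, 88.3 and 320.5 CPM in the LPS replicates and 70.9 to 97.0 in the CON group, and PPBP was at 0 in at least 1 library. By group range, CON against LPS, the sums were 23.9 to 103 and 17.4 to 43.7 CPM for B or plasma cell markers, 294 to 603 and 245 to 394 CPM for endothelial markers, and 906 to 1335 and 636 to 1416 CPM for cholangiocyte or stellate cell markers, none at 0 in any library. The part of these cell types in the members' values was not tested.

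**Figure D4:**
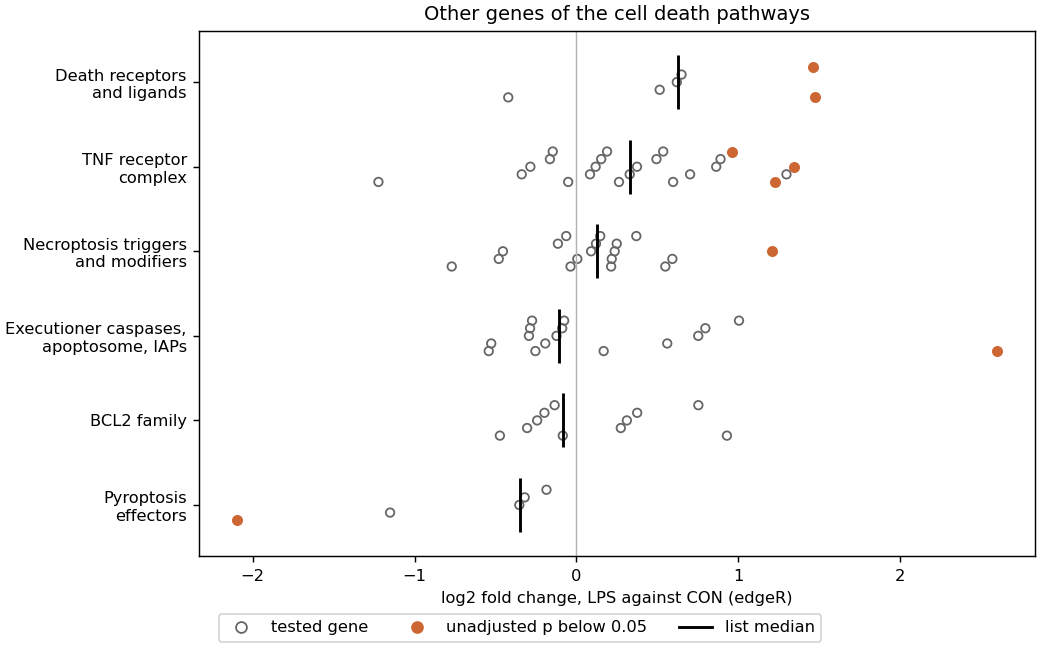
Log2 fold change, LPS against CON, from edgeR (horizontal axis) of each tested gene in 6 lists of cell death pathway genes, with filled points for an unadjusted p below 0.05 and a bar for the list median. The death receptor list has the highest median, 0.63, and the pyroptosis list the lowest, -0.35.

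The rest of the pathway was followed in 6 lists that together name 109 genes, of which 79 were tested. With all libraries edgeR called 0 of them, and 7 were higher and 1 lower at an unadjusted p below 0.05, against 12.5% of all tested genes in either direction. The median log2 fold change of all tested genes was 0.01. Among the receptors and ligands, 6 of 12 were tested, 5 higher and 1 lower, with a median of 0.63. FAS, the receptor that binds FADD directly and recruits caspase-8 through it, measured 6.52, 6.41 and 5.14 CPM in CON and 12.2, 4.42 and 32.5 CPM in LPS, by replicate. Its log2 fold change was 1.46 (SE 0.61, adjusted p = 0.368 by edgeR). LPS replicate 2 was again the lowest of all. TNFRSF21 (death receptor 6) averaged 16.3 ± 5.1 CPM in CON against 44.9 ± 36.5 CPM in LPS (± SD, n = 3), a log2 fold change of 1.47 (SE 0.58, adjusted p = 0.350).

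Of 24 genes of the TNF receptor complex, 23 were tested, 17 higher and 6 lower, with a median of 0.33. TNIP1, which binds ubiquitin chains and the deubiquitinase A20, was the one of its named genes whose groups did not overlap. Of the 23 tested, 1 gene lay wholly higher and 1 wholly lower in LPS, whereas 16.3% of all tested genes had groups that did not overlap. It measured 92.5, 122.5 and 124.4 CPM in CON and 285.9, 136.1 and 439.5 CPM in LPS, by replicate, a log2 fold change of 1.34 (SE 0.43, adjusted p = 0.257 by edgeR). TNIP2, a related protein, and MAPKAPK2, a kinase that phosphorylates RIPK1, had log2 fold changes of 1.22 (SE 0.53, adjusted p = 0.384) and 0.96 (SE 0.41, adjusted p = 0.376), and their groups overlapped. Among necroptosis triggers and modifiers, 18 of 21 were tested, 12 higher and 6 lower, with a median of 0.13. HSP90AA1, a chaperone of RIPK1, RIPK3 and MLKL, averaged 883 ± 253 CPM in CON against 2039 ± 1212 CPM in LPS (± SD, n = 3), a log2 fold change of 1.21 (SE 0.49, adjusted p = 0.360).

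Downstream of caspase-8, 16 of 19 executioner caspases, apoptosome components and IAP regulators were tested, 6 higher and 10 lower, with a median of -0.11. CYCS, encoding cytochrome c, the mitochondrial trigger of the apoptosome, measured 42.7, 11.6 and 25.6 CPM in CON and 87.7, 34.4 and 361 CPM in LPS, by replicate. Its log2 fold change was 2.59 (SE 0.82, adjusted p = 0.263 by edgeR). Mammalian genomes carry processed copies of CYCS, so its reads are uncertain. Of the BCL2 family, 11 of 19 were tested, 5 higher and 6 lower with a median of -0.08, and none passed an unadjusted p of 0.05. MCL1 has a row that is listed at 0 in all 6 libraries, and no value is drawn from it.

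Of the pyroptosis list, 5 of 14 genes were tested and all 5 had lower values in the LPS group, at a median of -0.35. CASP1, the inflammatory caspase that matures IL-1β and IL-18 and cleaves gasdermin D, measured 11.2, 5.78 and 11.6 CPM in CON and 0.872, 4.25 and 1.57 CPM in LPS, by replicate. All 3 LPS libraries were below all 3 CON libraries, which held for 1 of the 5 genes, whereas 16.3% of all tested genes had groups that did not overlap in either direction. The lowest value was in LPS replicate 1, the library with the fewest total counts (4348478), so it rests on few reads. LPS minus CON came to a log2 value of -2.09 (SE 0.57, adjusted p = 0.218 by edgeR), moving to -2.86 (adjusted p = 0.0131) when LPS replicate 2 was left out and to -1.83 (adjusted p = 0.264) when LPS replicate 3 was. The Kupffer cell or macrophage markers, 12 of 12 of which were lower, had the same direction. So did most tested T or NK cell (8 of 10), B or plasma cell (5 of 6), endothelial (7 of 9) and hepatocyte (6 of 10) markers. Most neutrophil (7 of 9), cholangiocyte or stellate cell (6 of 11) and red blood cell or platelet (2 of 2) markers were higher. The part of any of these cell types was not tested.

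Calls in these lists depended on the setting. With all libraries DESeq2 called CASP1 (-2.06, adjusted p = 0.0222) and CYCS (2.64, adjusted p = 0.00858), which was 2.53% of the tested list genes against 3.16% of all genes. Without the filter on low counts edgeR called CASP1, CYCS, FAS, TNFRSF21, TNIP1 and TNFAIP3, which encodes A20, 7.14% against 3.76% of all genes. The SE of CYCS was then 0.42, against 0.82 with the filter, so these calls too say little of the spread of each gene. Without LPS replicate 2, edgeR called 8 genes of the 6 lists, 9.88% against 7.2% of all genes. Of these FAS (1.91), TNFRSF21 (1.9), TNIP1 (1.69), TNIP2 (1.62), HSP90AA1 (1.59) and CYCS (3.08) were higher and CASP1 and GSDMB lower in the LPS group. Without LPS replicate 3 edgeR called 0 of them. The log2 fold changes were then 0.47 for FAS, 0.61 for TNFRSF21, 0.92 for TNIP1, 0.40 for TNIP2, 0.72 for HSP90AA1, 1.21 for CYCS and 0.43 for MAPKAPK2. These kept the direction seen with all libraries, but the genes were named by p in the same libraries. TNFAIP3 held 30.7 and 7.36 CPM in LPS replicates 1 and 2, on either side of the CON range of 17.6 to 26.25 CPM. In LPS replicate 3 it held 121.3 CPM.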

How the data were processed

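Liver input RNA of 3 CON and 3 LPS libraries was analysed. The authors deposited raw read counts per Ensembl pig gene, with exon positions and lengths. Per the labels, reads were trimmed with cutadapt 1.9.3 and aligned with HISAT2 and the library kit was directional. For the counting program, its use of strand and the pig genome build, the sources used here give nothing, and the builds in the submitters' notes are not of pig. CON replicates 1 and 2 have 2 sequencing entries and 1 column each. Of 31908 identifiers, 15029 were paired with a symbol.

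Counts were tested in R 4.3.3 with edgeR 4.0.16 (filterByExpr with a minimum count of 10, TMM, robust glmQLFit and glmQLFTest, Benjamini-Hochberg over all 12774 tested genes). Standard errors were obtained from each log2 fold change and its F statistic. DESeq2 1.42.0 and limma 3.58.1 (voom) were alternatives. Scripts were tested on simulated data. Exact permutation tests used scipy 1.17.1.

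The members and lists were chosen with earlier results of these data known. Lists were written from general knowledge. Genes named in the text are the members, up to 4 genes per list with the smallest edgeR p below 0.05, and the 3 genes most like each member, of which 1 is not reported here. CASP10, MCL1, GSDMB and TNFAIP3 were named after their values were seen. Other alternatives were other scalings, filters and fold thresholds, the replicate block, a pseudocount of 2, and leaving out each library.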

Additional observations from a re-analysis of the deposited data

How the results depend on the processing

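The number of members called was 0 with all 6 libraries in edgeR. It was 1 without the filter on low counts, 0 to 1 in edgeR with each library left out and 0 to 2 in DESeq2 with each library left out, a setting chosen after seeing the data. LPS replicate 2 was the library whose removal gave these calls. The number of genes called in the 6 pathway lists, 0 in edgeR, was 6 without the filter (3.76% of all genes were called) and 2 in DESeq2 (3.16%). With a library left out it was 0 to 8 in edgeR and 0 to 10 in DESeq2, the highest without LPS replicate 2 (7.2% and 11.4% of all genes). Other scalings, the stricter filter, limma-voom and no fold threshold or a 2-fold one left both numbers at 0, but limma-voom gave log2 fold changes of 0.99 for the BIRC3 row, 0.71 for MLKL and 0.28 for CFLAR. For the BIRC3 row the log2 fold change was 1.77 without the filter, where it was called with an SE of 0.41, against 0.83 with the filter. Scaling to total counts moved the median of all genes from 0.01 to -0.12, and CASP8 to the same -0.12, with CFLAR at 0.29. With a library left out in edgeR, the log2 fold change was -0.07 to 0.18 for CASP8, -0.20 to 0.96 for CFLAR, 0.07 to 2.30 for the BIRC3 row, 0.30 to 0.86 for RIPK1, -0.44 to 0.07 for RIPK3 and -0.34 to 1.73 for MLKL. In DESeq2 it was -0.04 to 0.23, -0.17 to 1.00, 0.11 to 2.33, 0.34 to 0.90, -0.39 to 0.10 and -0.30 to 1.76 in the same order. The lowest values of CASP8, CFLAR, BIRC3, RIPK1 and MLKL, and the highest of RIPK3, came without LPS replicate 3, and CASP8 was also -0.02 without CON replicate 2 in edgeR. The log2 ratio differences with a library left out were -0.23 to 0.67 for CFLAR to CASP8, -0.42 to 1.68 for MLKL to RIPK3, -0.61 to 0.13 for RIPK3 to CASP8 and 0.23 to 1.27 for RIPK1 to RIPK3, and the first 3 of these turned without LPS replicate 3.

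Deviations from the group means had correlations of -0.27, 0.23 and 0.02 between same-numbered CON and LPS libraries. With 3 libraries per group these values cannot decide whether such libraries are paired, and the labels give only the number. With the replicate block edgeR called 0 members, 0 pathway genes and, over all genes, 42 higher and 9 lower, against 7 and 0 without it. The log2 fold change was then 0.86 for the BIRC3 row, 0.57 for MLKL and 0.27 for CFLAR. By deviations from the group means, CON replicate 1 correlated best with LPS replicate 3 (0.24). This was hardly above the 0.23 of CON replicate 2 with LPS replicate 2. Among the members, depth limits CASP8, RIPK3 and MLKL most, with 34 to 182 reads per library apart from the 787 reads of MLKL in LPS replicate 3.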
